A study of Homo sapiens with 8 samples.

Results

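The 49 genes described here encode the machinery of autophagy and a selection of lysosomal membrane proteins and enzymes. They were chosen by gene symbol, and each symbol matched exactly 1 row of the 58302 genes in the table. All 49 passed the filter on low counts and were among the 15712 genes tested. Their response was measured in HCT116 p53+/+ cells, an established human colon cancer line with wild-type p53, in 2 groups of 4 samples that are labelled as biological replicates. The first group received MANIO, a compound given only by its code name, at 1 µM. The second received DMSO, the solvent of the compound. Cells had been seeded 24 hours before these additions and were collected 24 hours after them. The study asked whether the compound engages the p53 response in transcripts. These are bulk libraries of 1 cell line, in which fewer cells with a transcript and less of it per cell cannot be told apart.

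Autophagy delivers cell contents to the lysosome inside a double membrane, the autophagosome. A kinase complex built around ULK1 starts the process, a lipid kinase complex around BECN1 marks the growing membrane, and lipid transfer proteins feed it. Enzymes that resemble the ubiquitin cascade then attach small proteins of the ATG8 family, such as MAP1LC3B and GABARAP, to the membrane, where cargo receptors such as SQSTM1 bind them. The closed autophagosome fuses with the lysosome, whose peptidases and glycosidases degrade the content. TFEB, TFE3 and MITF are related transcription factors that bind the promoters of many lysosomal genes, and p53 is known to induce some autophagy genes, of which DRAM1 is the classic case.

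Total counts lay between 29270359 and 32509020 in the MANIO libraries and between 27945196 and 31750628 in the DMSO libraries. The share of counts from mitochondrially encoded genes averaged 7.08 ± 0.400% in MANIO and 5.64 ± 1.23% in DMSO (SD, n = 4 each). The exact two-sided permutation test gave p = 0.114, and 0.171 after adjustment over 2 library measures. DMSO replicate 1 had 7.48%, while the other DMSO libraries did not exceed 5.21%, and it also differed most from the other libraries of its group. Of 9 markers of colon epithelium, 7 exceeded a mean of 1 CPM (counts per 1000000 counts in tested genes, scaled between libraries), and VIL1 and CEACAM5 were at or near 0. Summed over the 9, they lay between 4266 and 4770 CPM in MANIO and between 3477 and 3755 CPM in DMSO. The 5 leukocyte markers summed to at most 0.380 CPM in MANIO and 0.186 CPM in DMSO, and the 3 endothelial markers to at most 0.475 CPM in MANIO and 1.10 CPM in DMSO. Of 5 fibroblast markers only COL1A1 exceeded 1 CPM, with 38.9 to 46.6 CPM in MANIO and 21.1 to 25.97 CPM in DMSO, while LUM had no read and DCN 1 read in all. The part of the mitochondrial share and of these markers in the results was not tested.

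Of the 49 genes, 31 changed, 21 higher and 10 lower in MANIO. A change was called at an adjusted p under 0.05 in edgeR's quasi-likelihood test, adjusted by Benjamini-Hochberg over all genes tested. MANIO changed 54.6% of all tested genes by the same rule, 27.8% upward and 26.8% downward, so a call by itself sets a gene little apart. Among the 49, the called share was 63.3%, with 42.9% higher and 20.4% lower. The MANIO and DMSO libraries did not overlap for 29 of the 49, where 48.3% of all tested genes showed no overlap. Changes were modest. The median change among the called members was 1.31-fold, against 1.34-fold among all called genes, and 2 members, DRAM1 and MITF, changed at least 2-fold. The median log2 fold change of all 49 was 0.10, and that of all tested genes was 0.0043. Without DMSO replicate 1, 31 members were called, 28 of which were among the 31 above.

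**Figure D1:**
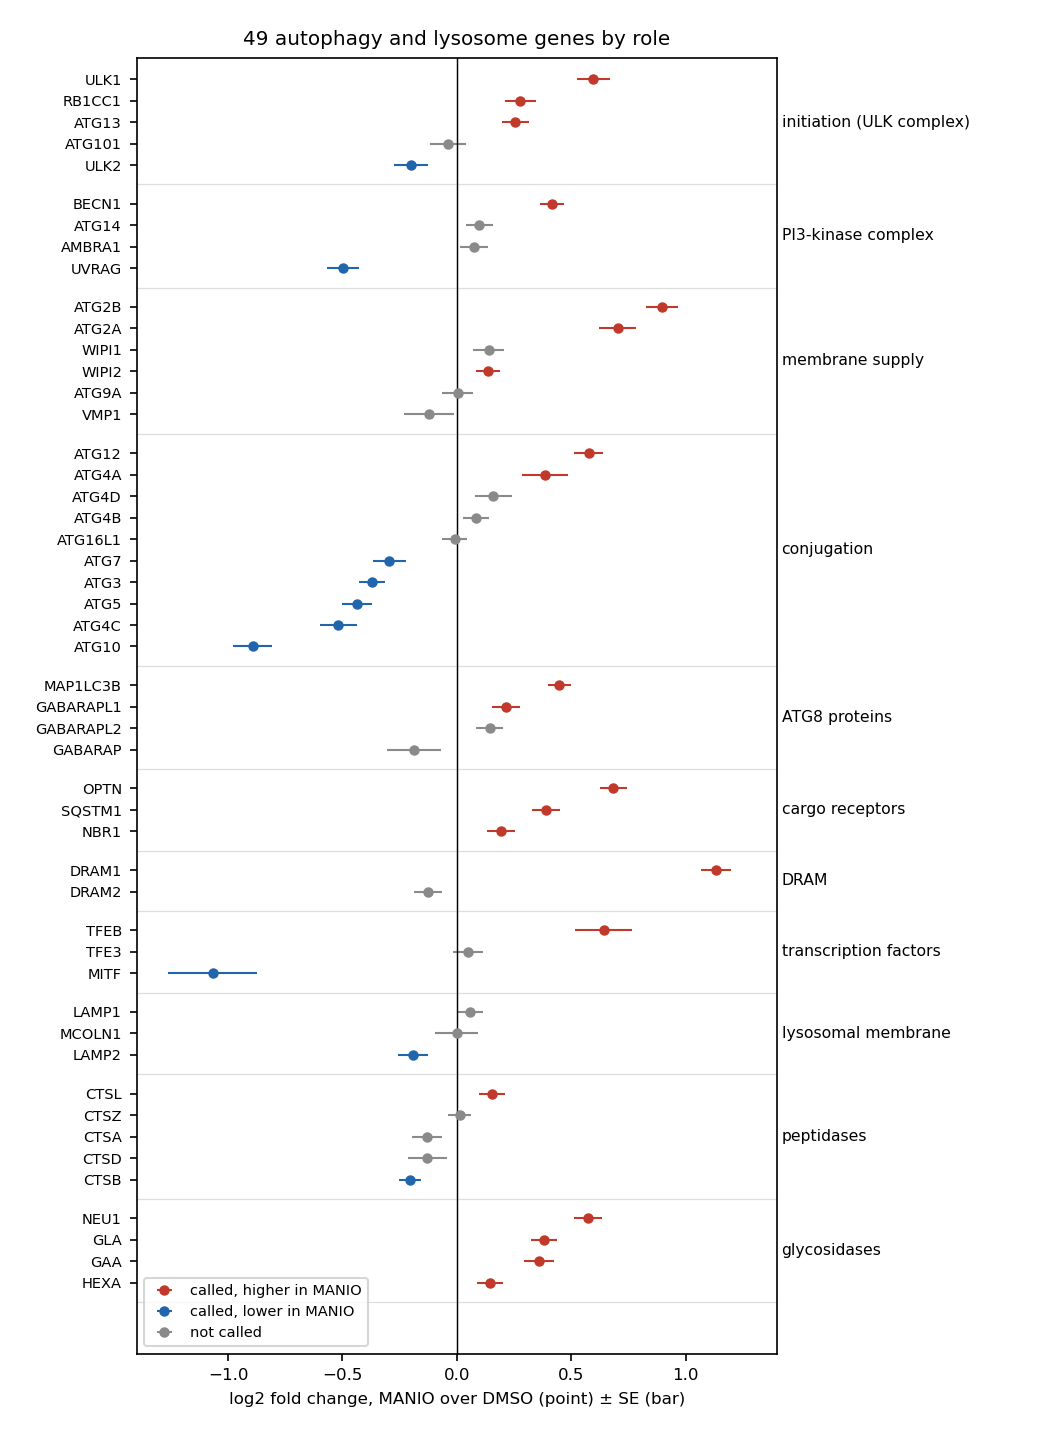
Log2 fold change of MANIO over DMSO for each of the 49 genes (points) with its SE (bars), grouped by role, with 4 libraries per group. All 4 glycosidase genes and all 3 cargo receptor genes lie to the right of 0, the conjugation genes run from ATG12 at 0.58 to ATG10 at -0.89, and DRAM1 and MITF stand at the ends.

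The gene that moved most was DRAM1, which encodes a lysosomal membrane protein that p53 induces and that promotes autophagy. DRAM1 stood at 69.5, 64.9, 67.8 and 71.2 CPM in the MANIO libraries, against 34.9, 30.9, 30.1 and 28.8 CPM in the DMSO libraries. The lowest MANIO library was well above the highest DMSO library. This 2.19-fold rise corresponded to a log2 fold change of 1.13 (SE 0.0648; edgeR adjusted p = 2.8e-09). DRAM1 (ENSG00000136048) lies on chromosome 12, 101877351 to 102012130 (GRCh38, plus strand). Its relative DRAM2 averaged 31.5 ± 1.46 CPM in MANIO and 34.3 ± 2.15 CPM in DMSO (SD, n = 4 each), groups that overlapped, and its log2 fold change of -0.13 did not pass (edgeR adjusted p = 0.1). DRAM2 was called lower without DMSO replicate 3 (edgeR adjusted p = 0.049) or MANIO replicate 4 (0.047).

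Among the genes that start autophagy, 3 of the 5 members of the ULK complex rose. ULK1, the kinase that receives the nutrient signal, had 48.1, 46.0, 51.6 and 42.9 CPM in the MANIO libraries, against 27.4, 31.8, 32.0 and 33.5 CPM in the DMSO libraries, and the groups did not overlap. Its log2 fold change was 0.60 (SE 0.0734; edgeR adjusted p = 7.4e-06). The scaffold gene RB1CC1, which encodes FIP200, rose by 0.28 on the log2 scale and the adaptor gene ATG13 by 0.26. ULK2, the related kinase gene, had 19.6, 19.7, 18.2 and 21.3 CPM in the MANIO libraries, against 25.0, 21.3, 20.8 and 23.5 CPM in the DMSO libraries. These ranges overlapped, and the fall of ULK2 was small, with a log2 fold change of -0.20 and an edgeR adjusted p of 0.033. That call was lost in 5 fits that each left out 1 library (DMSO replicate 1 or 4, or MANIO replicate 1, 2 or 3), with adjusted p up to 0.11. The fifth member, ATG101, had a log2 fold change of -0.04 and did not pass.

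In the lipid kinase complex BECN1 rose and UVRAG fell. BECN1, the core scaffold of the complex, had 112, 115.2, 119 and 123 CPM in the MANIO libraries, against 84.8, 85.2, 90.7 and 90.9 CPM in the DMSO libraries, with all MANIO libraries above all DMSO libraries. It rose 1.33-fold (edgeR adjusted p = 9.3e-06), although 17.1% of its exonic bases lie in exons of another gene, and without strand information such reads cannot be assigned. UVRAG, which joins BECN1 in complexes of endosomes and late autophagosomes, had 10.8, 11.0, 10.7 and 12.1 CPM in the MANIO libraries, against 15.96, 15.8, 15.4 and 15.7 CPM in the DMSO libraries. Its MANIO libraries were all below its DMSO libraries, at a log2 fold change of -0.50 (SE 0.0685; edgeR adjusted p = 2.3e-05). ATG14, which directs BECN1 to the autophagosome, and AMBRA1, a regulator of the complex, had log2 fold changes of 0.10 and 0.07 and did not pass.

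Genes for the proteins that supply lipid to the growing membrane held the next largest rises. ATG2B, a lipid transfer protein gene, had 23.5, 25.3, 27.2 and 25.9 CPM in the MANIO libraries, against 14.7, 12.7, 13.2 and 14.1 CPM in the DMSO libraries. ATG2A, its paralogue, had 46.7, 46.1, 43.5 and 37.3 CPM in the MANIO libraries, against 24.3, 28.6, 24.9 and 28.8 CPM in the DMSO libraries. Neither gene showed overlap between the groups. The log2 fold change was 0.90 (SE 0.0708) for ATG2B and 0.70 (SE 0.0806) for ATG2A, with edgeR adjusted p of 7.6e-08 and 3.7e-06. MANIO replicate 4 was the lowest MANIO library for ATG2A. WIPI2, which binds the lipid made by the BECN1 complex, had a log2 fold change of 0.14 (adjusted p = 0.042 by edgeR), a call lost in 10 of 13 alternative fits. WIPI1 (0.14), the scramblase gene ATG9A (0.00) and the ER scramblase gene VMP1 (-0.12) did not pass. In ATG9A 38.8% of the exonic bases are shared with other genes, the largest overlap being on the same strand, so its count is uncertain.

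**Figure D2:**
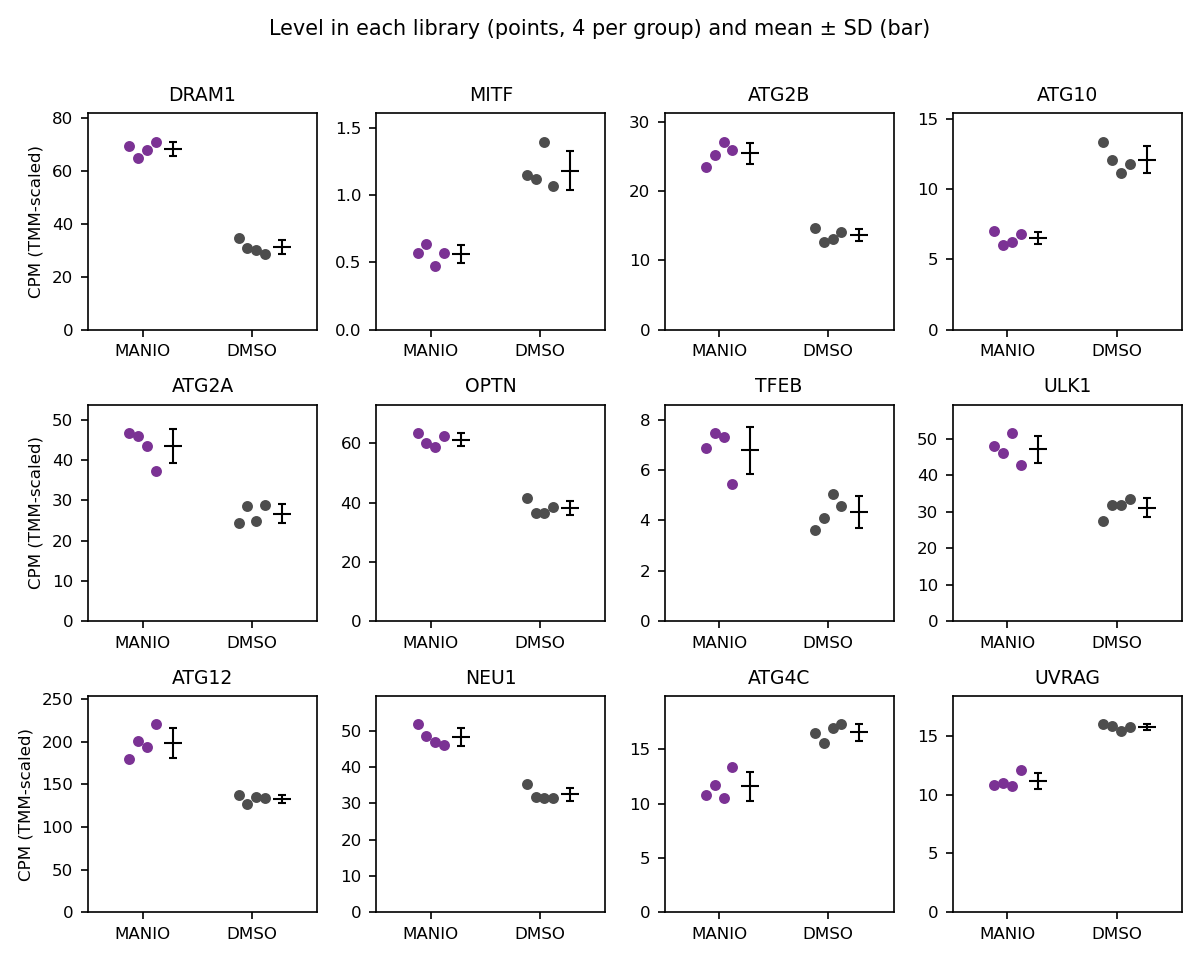
Level in CPM, with TMM scaling between libraries, of the 12 called members with the largest absolute log2 fold change, in each of the 4 MANIO and 4 DMSO libraries (points), with the mean and SD (bar). Each axis starts at 0. The groups do not overlap for any of the 12, and MITF, ATG10, ATG4C and UVRAG are those lower in MANIO.

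The conjugation enzymes were the role group with the most falls. Of 10 genes, 5 fell, 2 rose and 3 did not pass. ATG10, the E2-like enzyme that joins ATG12 to ATG5, had 7.002, 6.04, 6.23 and 6.80 CPM in the MANIO libraries, against 13.4, 12.1, 11.2 and 11.8 CPM in the DMSO libraries. That is 53.9% of the DMSO level (log2 fold change -0.89, SE 0.0856; edgeR adjusted p = 5.8e-07). ATG5, ATG3 and ATG7, which act in the same cascade, fell less. ATG5, the partner of ATG12, had a log2 fold change of -0.44, ATG3, the E2-like enzyme for the ATG8 proteins, one of -0.37, and ATG7, the shared E1-like enzyme, one of -0.29. In ATG7 18.1% of the exonic bases overlap another gene. ATG12 itself moved the other way, with 179, 201, 194 and 221 CPM in the MANIO libraries, against 137, 127, 135 and 135 CPM in the DMSO libraries. Its groups did not overlap and the rise was 1.49-fold (edgeR adjusted p = 1.9e-06). ATG16L1, which completes the ATG12-ATG5 complex, was nearly level (log2 fold change -0.01, edgeR adjusted p = 0.9).

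The 4 genes of the ATG4 proteases, which trim ATG8 proteins and release them from membranes, differed: ATG4A rose, ATG4C fell and the others did not pass. ATG4C had 10.8, 11.7, 10.5 and 13.4 CPM in the MANIO libraries, against 16.5, 15.5, 16.96 and 17.3 CPM in the DMSO libraries, all MANIO libraries below all DMSO libraries. Its log2 fold change was -0.52 (SE 0.0824; edgeR adjusted p = 8.6e-05). ATG4A averaged 16.6 ± 0.512 CPM in MANIO and 12.7 ± 2.22 CPM in DMSO (SD, n = 4 each) and rose by 0.39 on the log2 scale (edgeR adjusted p = 0.0041). ATG4B, the most studied of the 4, and ATG4D had log2 fold changes of 0.08 and 0.16 and did not pass. ATG4D was called higher without DMSO replicate 2 (edgeR adjusted p = 0.029) or MANIO replicate 4 (0.030).

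Of the ATG8 proteins themselves, MAP1LC3B, the LC3 protein used as the standard marker of autophagosomes, rose most. MAP1LC3B had 117, 118, 111 and 118 CPM in the MANIO libraries, against 88.5, 85.5, 80.8 and 84.3 CPM in the DMSO libraries, without overlap. The log2 fold change was 0.45 (SE 0.0507; edgeR adjusted p = 3.2e-06). GABARAPL1 had 65.9, 65.8, 68.1 and 70.1 CPM in the MANIO libraries, against 63.1, 52.7, 58.7 and 57.9 CPM in the DMSO libraries. It rose by 0.22 on the log2 scale (edgeR adjusted p = 0.0067), again without overlap. GABARAPL2 had 63.4, 63.5, 61.0 and 68.9 CPM in the MANIO libraries, against 62.3, 54.5, 56.4 and 59.3 CPM in the DMSO libraries. One DMSO library, replicate 1, was above the lowest MANIO library, and the gene did not pass (log2 fold change 0.14, edgeR adjusted p = 0.054). It was called higher without DMSO replicate 1 (edgeR adjusted p = 0.022) or MANIO replicate 3 (0.045). GABARAP had 6.4, 5.37, 6.08 and 4.44 CPM in the MANIO libraries, against 6.10, 7.34, 5.92 and 6.04 CPM in the DMSO libraries, with overlapping groups, a log2 fold change of -0.19 and an edgeR adjusted p of 0.19. In GABARAP 55.7% of the exonic bases lie in exons of other genes, the largest overlap being on the same strand, so its level is uncertain.

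Per kilobase of exonic length, the 4 genes can be set side by side. The place of GABARAP is uncertain, because 55.7% of its exonic bases are shared with other genes, the largest overlap being on the same strand. In MANIO the level per kilobase was 21.8 ± 0.641 CPM for MAP1LC3B, 21.2 ± 1.11 for GABARAPL2, 16.5 ± 0.5002 for GABARAPL1 and 2.46 ± 0.383 for GABARAP (SD, n = 4). In DMSO it was 15.95 ± 0.602 CPM for MAP1LC3B, 19.2 ± 1.13 for GABARAPL2, 14.2 ± 1.04 for GABARAPL1 and 2.80 ± 0.293 for GABARAP. MAP1LC3B and GABARAPL2 thus lay within their SD of each other in MANIO, whereas GABARAPL2 was the higher of this pair in DMSO. The exonic length is the union of all annotated exons, so this order depends on the annotation.

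All 3 cargo receptor genes rose. OPTN, the receptor best known for damaged mitochondria and bacteria, had 63.6, 60.3, 58.8 and 62.5 CPM in the MANIO libraries, against 41.4, 36.3, 36.5 and 38.4 CPM in the DMSO libraries. It showed the largest change of the 3, a log2 fold change of 0.68 (SE 0.0590; edgeR adjusted p = 2.0e-07), and no overlap. SQSTM1, which encodes p62, the receptor for ubiquitin-tagged cargo, had 533, 539, 541 and 486 CPM in the MANIO libraries, against 363, 427, 419 and 393 CPM in the DMSO libraries. The groups did not overlap, and the rise was 1.31-fold (edgeR adjusted p = 7.4e-05). SQSTM1 had the highest level per exonic kilobase of the 49 genes in MANIO (68.6 ± 3.402 CPM). CTSZ was close, at 65.3 ± 1.85 CPM, and in DMSO it was higher than SQSTM1. There CTSZ stood at 64.7 ± 2.70 CPM per kilobase and SQSTM1 at 52.4 ± 3.75 CPM. In SQSTM1 22.04% of the exonic bases overlap other genes, the largest overlap being on the opposite strand. NBR1 averaged 183 ± 6.995 CPM in MANIO and 159.9 ± 13.5 CPM in DMSO (SD, n = 4 each) and rose by 0.19 on the log2 scale. DMSO replicate 1, at 180.0 CPM, reached into the MANIO range, and the call was lost without DMSO replicate 3 (edgeR adjusted p = 0.052 against 0.013).

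Of the 3 transcription factor genes, TFEB rose, MITF fell and TFE3 did not pass. TFEB had 6.88, 7.47, 7.31 and 5.45 CPM in the MANIO libraries, against 3.61, 4.09, 5.06 and 4.58 CPM in the DMSO libraries. MANIO replicate 4 was the lowest MANIO library, but still above every DMSO library. The log2 fold change was 0.64 (SE 0.124; edgeR adjusted p = 4.5e-04). TFE3 had 37.2, 35.3, 38.1 and 31.6 CPM in the MANIO libraries, against 34.2, 33.4, 35.3 and 34.6 CPM in the DMSO libraries, groups that overlapped, with a log2 fold change of 0.05 that did not pass (edgeR adjusted p = 0.54). MITF, the melanocyte regulator, was barely expressed, with 0.570, 0.640, 0.475 and 0.572 CPM in the MANIO libraries, against 1.153, 1.12, 1.4 and 1.07 CPM in the DMSO libraries. It fell to 47.7% of the DMSO level (log2 fold change -1.07, SE 0.193; edgeR adjusted p = 2.6e-04), on 18, 21, 15 and 17 reads in the MANIO libraries and 31, 32, 44 and 30 reads in the DMSO libraries. Per exonic kilobase TFE3 was the most abundant of the 3 in both groups (8.30 ± 0.677 CPM in MANIO and 8.02 ± 0.184 CPM in DMSO). TFEB followed, with 1.2 ± 0.163 CPM in MANIO and 0.767 ± 0.111 CPM in DMSO.

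Of the lysosomal enzymes, all 4 glycosidase genes rose. NEU1, the lysosomal sialidase, had 51.8, 48.7, 46.8 and 46.1 CPM in the MANIO libraries, against 35.2, 31.8, 31.6 and 31.5 CPM in the DMSO libraries. Its groups did not overlap, and the log2 fold change of 0.57 (SE 0.0613; edgeR adjusted p = 1.9e-06) was the largest among the 9 lysosomal peptidase and glycosidase genes. GLA, the galactosidase lost in Fabry disease, averaged 43.1 ± 1.39 CPM in MANIO and 33.0 ± 1.37 CPM in DMSO (SD, n = 4 each) and rose 1.304-fold. GAA, the glucosidase lost in Pompe disease, averaged 172 ± 14.1 CPM in MANIO and 134 ± 8.01 CPM in DMSO and rose 1.28-fold. The rise of HEXA, a hexosaminidase subunit, was small (log2 fold change 0.15, edgeR adjusted p = 0.044), and its call was lost in 11 of 13 alternative fits, with adjusted p up to 0.16.

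The peptidase genes did not move together. CTSB, a cysteine protease, had 245, 230.2, 231 and 229.6 CPM in the MANIO libraries, against 279, 267, 267 and 267 CPM in the DMSO libraries. All MANIO libraries lay below all DMSO libraries, with a small log2 fold change of -0.21 (edgeR adjusted p = 0.002). CTSL, another cysteine protease, had a log2 fold change of 0.16 (adjusted p = 0.029 by edgeR). Its call was lost without DMSO replicate 2 or 4, without MANIO replicate 2 or 3 and with no filter on low counts, with adjusted p up to 0.10. CTSA (-0.13), CTSD (-0.13) and CTSZ (0.01) did not pass. In CTSD, an aspartic protease, 52.7% of the exonic bases are shared with other genes, the largest overlap being on the same strand. Without DMSO replicate 1, CTSA (-0.178, adjusted p = 0.019) and CTSD (-0.192, adjusted p = 0.047) were called lower by edgeR.

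Of LAMP1, LAMP2 and MCOLN1, grouped here as the lysosomal membrane, LAMP2 fell and the others did not pass. LAMP1, the main membrane glycoprotein, had 182, 195, 194 and 189 CPM in the MANIO libraries, against 164, 189, 189 and 188 CPM in the DMSO libraries. These ranges overlapped, and the log2 fold change of 0.06 did not pass (edgeR adjusted p = 0.4). LAMP2, whose isoforms serve fusion and chaperone-mediated autophagy, had 70.9, 77.1, 65.1 and 78.0 CPM in the MANIO libraries, against 89.0, 78.1, 81.4 and 84.1 CPM in the DMSO libraries. The highest MANIO library was just below the lowest DMSO library. LAMP2 fell, with a log2 fold change of -0.19 (adjusted p = 0.021 by edgeR), and its call was lost without DMSO replicate 1, MANIO replicate 1 or MANIO replicate 3 (adjusted p up to 0.081). MCOLN1, the lysosomal calcium channel, averaged 11.1 ± 1.16 CPM in MANIO and 11.1 ± 1.16 CPM in DMSO (SD, n = 4 each), a log2 fold change of -0.0010 that did not pass.

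Lysosomal genes often carry the CLEAR element in their promoter, whose core is the palindrome TCACGTGA, an extended E-box that TFEB and its relatives bind. RefSeq windows of 250 bases before to 50 bases after a gene's start (GRCh38.p14) were at hand for 43 of the 49 genes, 54 windows in all. The core stood in the windows of 5 of the 43 genes (11.6%), and in those of 2.16% of the 10645 tested genes with a window. The hexamer CACGTG, which the core contains, stood in those of 8 members (18.6%) and 12.6% of the tested genes. Both motifs read the same on either strand. The 5 genes with a core are shown because their calls differed. GAA rose, ATG3 fell, and LAMP1, MCOLN1 and CTSA did not pass. Each stretch is 5′ to 3′ on the gene's strand with the core in capitals.

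GAA (chr17:80101478-80101537, plus strand): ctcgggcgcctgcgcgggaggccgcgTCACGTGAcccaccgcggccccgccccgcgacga

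GAA (chr17:80101523-80101582, plus strand): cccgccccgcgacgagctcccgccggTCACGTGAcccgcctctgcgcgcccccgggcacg

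LAMP1 (chr13:113297184-113297243, plus strand): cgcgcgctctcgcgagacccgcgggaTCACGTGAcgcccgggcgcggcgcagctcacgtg

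MCOLN1 (chr19:7522583-7522642, plus strand): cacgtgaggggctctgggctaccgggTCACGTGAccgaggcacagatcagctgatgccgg

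CTSA (chr20:45891283-45891342, plus strand): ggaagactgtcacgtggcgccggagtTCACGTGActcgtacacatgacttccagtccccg

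ATG3 (chr3:112561925-112561984, minus strand): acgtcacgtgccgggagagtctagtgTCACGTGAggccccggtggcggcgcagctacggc

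In these stretches the core begins at base -77 and at base -32 of GAA, -29 of LAMP1, -15 of MCOLN1, -26 of CTSA and 4 of ATG3, counted from the RefSeq start. LAMP1 and MCOLN1 hold a second core each, at -2 and at -42. Among the 19 called-higher genes with a window, 1 had a core (5.26%), as did 1 of the 7 called lower (14.3%) and 3 of the 17 not called (17.6%). The p53 half-site, searched by its degenerate consensus, which also reads the same on either strand, was in the windows of 2 of the 43 genes (4.65%) and of 7.76% of tested genes. These were NEU1 and GABARAPL1, both higher in MANIO, shown with the half-site in capitals.

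NEU1 (chr6:31862939-31862998, minus strand): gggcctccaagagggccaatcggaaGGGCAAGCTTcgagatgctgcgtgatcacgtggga

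GABARAPL1 (chr12:10212627-10212677, plus strand): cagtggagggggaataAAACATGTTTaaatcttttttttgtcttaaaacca

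No half-site was found in the window of DRAM1, which says nothing of sites elsewhere in the gene.

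Related genes were compared within each library, which depends little on the scaling between libraries. For 14 pairs chosen by relation or shared function, the log2(CPM + 0.5) of one gene minus that of the other was set between the groups. In 7 pairs the groups did not overlap. Among single tested genes 48.3% showed no overlap, and no such share was taken over pairs of other genes. DRAM1 over DRAM2 averaged 1.11 ± 0.0552 in MANIO and -0.138 ± 0.0929 in DMSO (log2 units, SD, n = 4 each). TFEB over MITF differed by 1.25 (SE 0.135), ULK1 over ULK2 by 0.785 (SE 0.149) and ATG4D over ATG4C by 0.664 (SE 0.158). MAP1LC3B over GABARAP, TFEB over TFE3 and LAMP1 over LAMP2 were the others, with differences of 0.627, 0.544 and 0.254. Each of the 7 had an exact two-sided permutation p of 0.0286, the smallest that 4 against 4 allows. After Benjamini-Hochberg adjustment over the 14 pairs this was 0.0571, so 0 pairs passed the threshold. With this smallest p, a pair could not pass on its own values, only if enough other pairs also reached it. MITF lay near the added 0.5 CPM, and with 2 CPM added TFEB over MITF differed by 0.781. With 2 CPM added, 8 pairs had an adjusted exact permutation p of 0.05, which is not under the threshold. ATG2A over ATG2B (-0.183, exact permutation p = 0.2) and GABARAPL1 over GABARAPL2 (0.0738, exact permutation p = 0.114) overlapped between the groups.

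**Figure D3:**
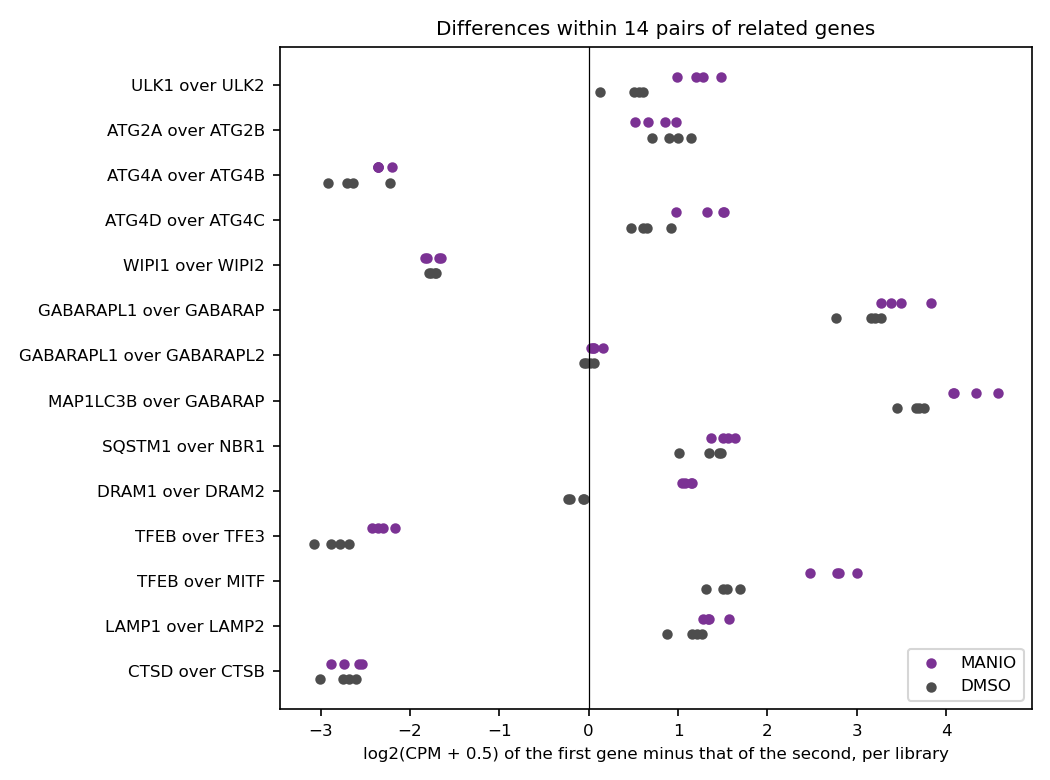
Difference in log2(CPM + 0.5) between the 2 genes of each pair, in each of the 4 MANIO and 4 DMSO libraries (points). DRAM1 over DRAM2 shows the widest gap between the groups for its spread, while the groups overlap for WIPI1 over WIPI2.

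The members that fell include the longest genes of the group. UVRAG spans 328 kb, ATG10 305 kb, ATG7 285 kb, ATG5 280.4 kb and MITF 229 kb from first to last annotated base, and all 5 were lower in MANIO. Of 9 members over 100 kb, a limit set after the values were seen, 5 fell, DRAM1 and RB1CC1 rose, and AMBRA1 and VMP1 did not pass. Among all tested genes over 100 kb, 19.0% were higher and 45.1% lower in MANIO. Among those of 100 kb or less, 29.5% were higher and 23.1% lower. Of the 40 members of 100 kb or less, 19 rose and 5 fell. Across the 49 genes, the log2 fold change and the log10 span had a Pearson r of -0.29, and across 15673 tested genes one of -0.17. Genes are not independent replicates, so these are descriptions. The part of gene length in the falls was not tested.

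**Figure D4:**
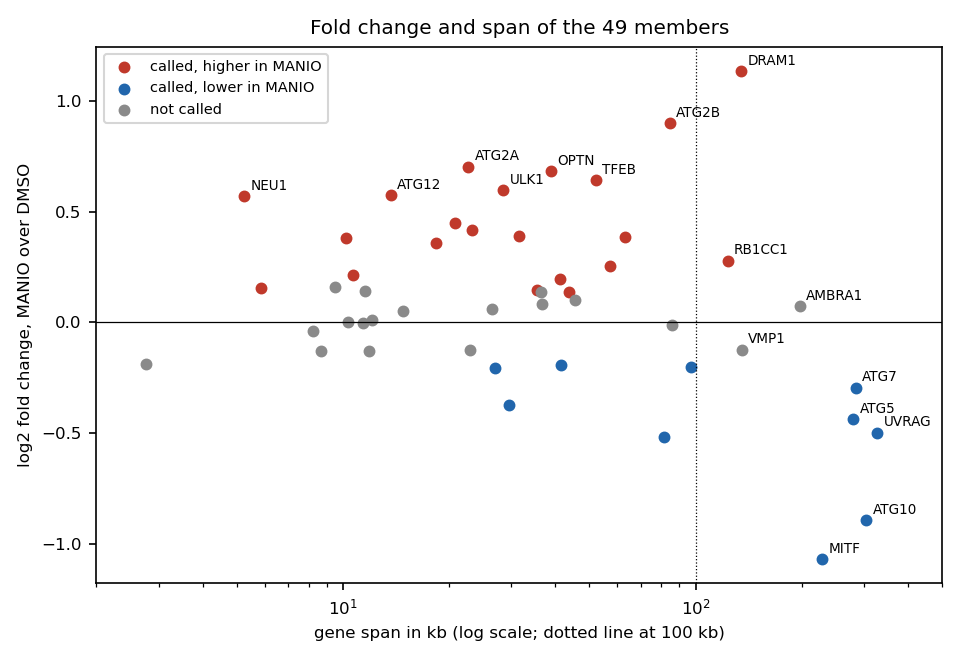
Log2 fold change of MANIO over DMSO against the gene span in kb (log axis) for the 49 genes, 1 point per gene, with a dotted line at 100 kb. The 5 genes with the longest span are all below 0, and DRAM1, at 135 kb, is the highest point.

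A further 163 genes of autophagy, the lysosome and the signals that govern them were counted in 5 lists, of which 157 were tested. Together 46 rose, 35 fell and 76 did not pass, so 51.6% were called, against 54.6% of all genes tested, and the median log2 fold change was 0.054. In the list of other autophagy genes, 14 of 41 rose and 11 fell, a called share of 61.0%. TP53INP1, a p53 target whose product binds ATG8 proteins, averaged 225 ± 17.2 CPM in MANIO and 45.9 ± 4.52 CPM in DMSO (SD, n = 4 each), a 4.90-fold rise that exceeded that of DRAM1. WDR45, a relative of WIPI1 and WIPI2, rose by 0.67 on the log2 scale, and EI24, an ER protein first found as a p53-induced gene, by 0.47. HMGB1 (log2 fold change -0.63) and the prohibitin gene PHB2 (-0.44), a mitophagy receptor, fell.

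Of 35 other lysosomal hydrolase genes tested, 9 rose and 8 fell, a called share of 48.6% against 54.6% of all tested genes. FUCA1, a fucosidase gene known as a p53 target, averaged 80.3 ± 3.29 CPM in MANIO and 41.4 ± 3.13 CPM in DMSO (SD, n = 4 each) and rose 1.94-fold (edgeR adjusted p = 1.0e-08). SGSH, a heparan sulfate degrading enzyme, rose by 0.74 on the log2 scale and the mannosidase gene MAN2B1 by 0.60. ARSB, an arylsulfatase gene spanning 209 kb, averaged 4.12 ± 0.246 CPM in MANIO and 10.8 ± 0.364 CPM in DMSO, a log2 fold change of -1.39. Among 31 genes of lysosomal membrane and sorting, 8 rose and 5 fell, a called share of 41.9%. LAMP3, a relative of LAMP1 and LAMP2, averaged 20.4 ± 1.96 CPM in MANIO and 6.48 ± 0.709 CPM in DMSO and rose 3.16-fold (edgeR adjusted p = 2.5e-09). The peptide transporter gene ABCB9 rose by 1.12 on the log2 scale and IGF2R, the mannose 6-phosphate receptor that sorts enzymes to lysosomes, by 0.29. AP3B1 (-0.36), the sorting receptor gene SORT1 (-0.34) and LAPTM4A (-0.23) fell.

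Of 18 tested genes of the V-ATPase, the pump that acidifies lysosomes, 8 rose, 1 fell and 9 did not pass. That put 44.4% of the list higher and 5.56% lower. Among all tested genes 54.6% were called, 27.8% higher and 26.8% lower, so the V-ATPase list was not called more often. ATP6AP2 (0.40), ATP6V1A (0.38) and ATP6V1C2 (0.72) rose on the log2 scale, while ATP6V1C1 was lower (-0.22, edgeR adjusted p = 0.019). That fall was not called without DMSO replicate 1 (0.059) or MANIO replicate 3 (0.068), and in both fits 0 genes of this list were called lower. In nutrient signalling, the list that holds mTORC1 and AMPK, 7 of 32 genes rose and 10 fell, a called share of 53.1%. Both AMPK beta subunit genes rose, PRKAB2 with 65.9 ± 2.57 CPM in MANIO and 34.05 ± 1.304 CPM in DMSO (SD, n = 4 each; log2 fold change 0.95) and PRKAB1, a known p53 target, by 0.90. The gamma subunit gene PRKAG1 (-0.75), FNIP2 (-0.73) and the mTOR inhibitor gene DEPTOR (-0.98) fell. TFEC, the fourth member of the TFEB family, averaged 0.639 ± 0.171 CPM in MANIO and 0.137 ± 0.0392 CPM in DMSO, a rise of 2.16 on the log2 scale. It rested on 14, 23, 18 and 25 reads in the MANIO libraries and 3, 3, 6 and 4 reads in the DMSO libraries. TFEC passed the filter on low counts only through its MANIO libraries, so the size of this rise is uncertain. Without DMSO replicate 2, 4 genes of this list were called higher.

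**Figure D5:**
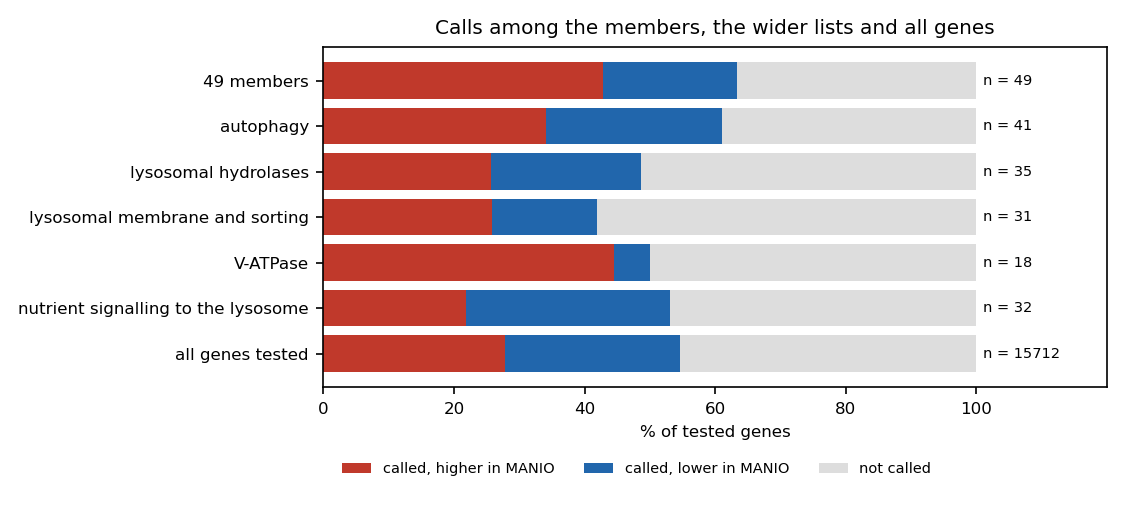
Share of tested genes called higher or lower in MANIO, or not called, among the 49 members, the 5 further lists and all tested genes, with the number tested. The members have 42.9% called higher, against 27.8% of all genes. The share is 44.4% in the V-ATPase list and 34.1% in the further autophagy list. It is 25.8% in membrane and sorting, 25.7% in hydrolases and 21.9% in nutrient signalling. Nutrient signalling has more falls than rises.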

How the data were processed

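TruSeq RNA v2 libraries of 8 samples, 4 MANIO and 4 DMSO, were sequenced. The authors deposited raw read counts per gene in 1 table, with no normalization. The submitters' processing notes list FastQC 1.3, STAR 2.5.3a, HTSeq, DESeq2 and GRCh38; the sources used here do not give their roles, the annotation release or the strand setting. Exons, spans and overlaps came from GENCODE release 29 (58039 of 58302 IDs matched), promoters from RefSeq (GRCh38.p14).

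Counts were filtered with filterByExpr, scaled by TMM and fitted with edgeR 4.0.16 (R 4.3.3; robust quasi-likelihood F test, Benjamini-Hochberg over 15712 genes, threshold 0.05). CPM use TMM-scaled library sizes. For gene pairs and library measures, all 70 assignments entered an exact two-sided permutation test, whose smallest p is 0.0286. The script was tested on simulated data. Alternatives were a replicate block, DESeq2 1.42.0, RLE and upper-quartile scaling, no filter on low counts, and each library left out. Total counts ran from 27945196 to 32509020.

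The members and lists were chosen with earlier results of these data known. Values per library are given for the 12 called members with the largest change, the member with the smallest p in each of 11 roles and a set list of 13 genes. Up to 3 called genes per direction are named from each of the 5 further lists, and some that this rule picks are not reported here.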

Additional observations from a re-analysis of the deposited data

Results flagged for a closer look

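In groups of 4, a library was singled out when its gap to the nearest other library exceeded the share of the group's range set by Dixon's 95% critical value, which chance gives in about 1 in 20 groups. Of 98 member groups, 13 had such a library, and 5 of the 13 were DMSO replicate 1. That library was high for RB1CC1 (84.7 CPM), NBR1 (180.0 CPM), CTSB (279 CPM) and NEU1 (35.2 CPM), low for LAMP1 (164 CPM), and also had the highest mitochondrial share in DMSO, 7.48%. MANIO replicate 3 was low for MAP1LC3B (110.6 CPM) and high for CTSL (72.9 CPM) and CTSZ (139 CPM). MANIO replicate 4 was low for ATG9A (63.4 CPM) and SQSTM1 (486 CPM), and MANIO replicate 1 was high for CTSB (245 CPM). DMSO replicate 2 was high for GABARAP (7.34 CPM) and DMSO replicate 3 for CTSZ (140.0 CPM). RB1CC1, MAP1LC3B, SQSTM1, CTSB and NEU1 were called in every fit that left out 1 library.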

How the results depend on the processing

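Of the 31 called members, 25 (17 higher, 8 lower) were called in the same direction in all 13 alternative fits, and no called member changed sign. The others were HEXA, WIPI2, CTSL, ULK2, LAMP2 and NBR1. GABARAPL2, CTSA, CTSD, ATG4D and DRAM2 were called in some alternatives only. The number called was 29 with DESeq2, 30 with RLE scaling, 29 with upper-quartile scaling, 28 with no filter and 27 to 32 with 1 library left out. With the replicate number as a block, 31 were called, 30 of them shared, without WIPI2 and with GABARAPL2 (edgeR adjusted p = 0.046). Same-numbered libraries correlated at 0.0385 to 0.163 in their deviations, and 1 of 4 MANIO libraries correlated best with its own number, so the numbers were not taken to pair the samples. Sign changes were seen among members that did not pass. The ATG9A log2 fold change was -0.00674 with DESeq2, -0.00106 with RLE scaling, -0.00964 with upper-quartile scaling and -0.0134 with no filter. The CTSZ log2 fold change was -0.000455 with upper-quartile scaling and -0.00391 with no filter, and the MCOLN1 log2 fold change was 0.00123 with the block. With 1 library left out, the range was -0.0351 to 0.0581 for ATG9A, -0.0398 to 0.0140 for ATG16L1, -0.0905 to 0.0321 for ATG101, -0.00666 to 0.0412 for CTSZ and -0.0704 to 0.0515 for MCOLN1. WIPI1 over WIPI2 differed by -0.00480 with a pseudocount of 2. V-ATPase genes called lower numbered 0 to 2. The cause of these shifts was not tested. Depth limits MITF and TFEC most, and annotation overlap on the same strand limits GABARAP, CTSD and ATG9A. Among the genes named from the further lists, the largest overlap was on the same strand for MAN2B1, WDR45, PHB2 and AP3B1. Overlap with all other genes covers 21.2%, 13.9%, 11.8% and 5.16% of their exonic bases, which may limit their counts. The strand setting is not known, so overlap whose largest part is with a gene on the opposite strand may also limit counts. Such overlap covers 28.5% of the exonic bases of CTSA, 28.1% of WIPI1, 22.04% of SQSTM1, 19.2% of ATG101 and 16.3% of HEXA. In the further lists it covers 29.9% of ATP6V1C2 and 24.5% of ABCB9.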
